A study of Mus musculus with 15 samples.

Results

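The RAS, RAF, MEK and ERK genes examined here were Braf, Araf, Nras, Hras, Map2k1, Map2k2 and Mapk3. These 7 genes were taken by symbol from a deposited table of 55536 genes, and all 7 passed the filter on low counts that left 13364 genes for testing. The family was chosen by its Braf level, which stood higher in the blood of exposed animals, so the difference in Braf between the groups is given as a description, without a test. The data are bulk RNA sequencing of whole blood from 15 male C57Bl/6 mice, all 10 months old. In the TBT group (8 animals), the mothers drank tributyltin (TBT), an organotin that activates the nuclear receptors RXR and PPAR gamma, in water (3.07 µM, a daily 0.5 mg per kg of body weight) up to weaning. In the vehicle group (7 animals), the mothers received the vehicle. The dosing was therefore that of the mother and had ended long before sampling. The labels do not give the litters, so any shared dam is unknown, and they mark a liver tumor in 1 animal, vehicle 3.

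RAS proteins are membrane-bound GTPases that switch on when receptors recruit exchange factors. Active RAS recruits RAF kinases, RAF kinases phosphorylate the MEK kinases, and MEK kinases phosphorylate ERK kinases, which then act on kinases and transcription factors. Blood cells use this cascade downstream of cytokine, antigen and growth factor receptors, and platelets carry it as well. Nras and Hras encode RAS proteins, Braf and Araf encode RAF kinases, Map2k1 and Map2k2 encode MEK1 and MEK2, and Mapk3 encodes ERK1.

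On library sizes scaled to a typical gene, Braf was read at a nearly constant level in all TBT animals and stood above every vehicle animal. As a share of all counts, the groups overlapped. On the first scale the levels of Araf, Map2k1 and the low Hras overlapped between the groups, with log2 fold changes of -0.01, -0.06 and 0.17, and no difference between genes was tested. On this scale Nras, Map2k2 and Mapk3 varied far more in TBT blood than in vehicle blood, but only with TBT 2 and TBT 8 included. Among the TBT libraries, TBT 2 and TBT 8 had the highest values of these genes. On the same scale, relative to a typical gene, these libraries also carried the highest platelet and erythroid marker levels. The Mapk3 level of TBT 2 lay inside the vehicle range. Outside Braf, no member passed the test over all genes (edgeR quasi-likelihood test with Benjamini-Hochberg adjustment, smallest adjusted p of 0.95), and none of these 6 genes had an unadjusted p under 0.05.

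The promoters of Braf and Araf are shown because Braf chose the family and Araf is its RAF paralogue among the members, and those of Nras and Map2k2 because both genes were high in TBT 2 and TBT 8. RefSeq promoters on GRCm38.p6, from 250 bases before to 50 bases after the gene start, were found for 6 of the 7 members; Mapk3 had no entry. Short motifs were searched on both strands. The cyclic AMP response element (CRE) was searched as TGACGTCA. The GC box was searched as GGGCGG, and the CCAAT box by the letters of its name. For the ETS core the letters were CCGGAAG. The TATA box was searched as TATAAA. A match describes letters and not a bound site. The sequences below read 5′ to 3′ on the gene's strand, with CRE matches in capitals for Braf, CCAAT matches for Araf and GC box matches for Nras and Map2k2.
Braf, chr6:39725414-39725713, minus strand: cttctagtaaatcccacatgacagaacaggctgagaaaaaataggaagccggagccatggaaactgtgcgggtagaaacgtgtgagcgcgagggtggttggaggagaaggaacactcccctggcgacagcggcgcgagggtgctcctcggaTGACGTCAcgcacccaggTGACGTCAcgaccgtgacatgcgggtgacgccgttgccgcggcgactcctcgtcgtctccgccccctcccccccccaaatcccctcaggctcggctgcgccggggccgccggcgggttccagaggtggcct
Araf, chrX:20848293-20848592, plus strand: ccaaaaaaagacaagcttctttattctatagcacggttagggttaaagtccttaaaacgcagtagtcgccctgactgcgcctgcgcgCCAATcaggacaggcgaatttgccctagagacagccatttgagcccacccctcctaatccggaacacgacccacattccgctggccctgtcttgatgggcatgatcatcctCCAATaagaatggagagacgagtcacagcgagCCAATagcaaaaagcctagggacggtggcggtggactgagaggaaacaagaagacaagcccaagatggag
Nras, chr3:103058035-103058334, plus strand: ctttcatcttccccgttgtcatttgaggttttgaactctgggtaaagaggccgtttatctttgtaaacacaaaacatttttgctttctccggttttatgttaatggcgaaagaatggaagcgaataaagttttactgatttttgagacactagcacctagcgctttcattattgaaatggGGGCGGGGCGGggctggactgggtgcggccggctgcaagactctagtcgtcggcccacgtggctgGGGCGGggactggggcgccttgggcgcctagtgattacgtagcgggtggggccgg
Map2k2, chr10:81105665-81105964, plus strand: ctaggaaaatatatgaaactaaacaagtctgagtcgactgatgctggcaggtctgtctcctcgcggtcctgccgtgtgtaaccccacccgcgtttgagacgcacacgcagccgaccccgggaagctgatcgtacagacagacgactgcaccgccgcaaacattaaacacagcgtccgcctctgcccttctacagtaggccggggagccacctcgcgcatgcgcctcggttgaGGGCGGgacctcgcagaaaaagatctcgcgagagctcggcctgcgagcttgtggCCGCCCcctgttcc
The Braf window held 2 full CRE matches, starting 99 and 81 bases before the gene start. Of 32851 promoter windows of this length, 1.79% held a CRE and 0.0396% (13) held at least 2. None of the other 5 members had a CRE in its window. The Araf window held 3 CCAAT matches, Map2k1 held 2 and Hras 1. Of all windows, 37.4% held at least 1 CCAAT match and 11.7% at least 2. GC boxes numbered 3 in Nras, 2 in Map2k2, 3 in Hras and 4 in Map2k1, against 1 in Braf and 0 in Araf. At least 1 GC box was held by 35.7% of all windows, and at least 2 by 19.5%. A pair of GC box matches in Nras overlapped by their end bases. None of the 6 windows held the ETS core (8.86% of all windows) or the TATA box (13.6%). The GC content was 65.0% for Braf, 52.0% for Araf, 52.3% for Nras and 60.7% for Map2k2, beside a median of 52.7% over all windows.

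The libraries held 6.03 to 11.99 M gene counts, and at least 99.4% of them fell in tested genes. Blood identity was clear from the marker genes: haemoglobin transcripts took 28.7% to 50.8% of counts in TBT and 28.9% to 44.1% in vehicle. Of the listed blood cell markers, Ahsp was not among the counted genes, and none of the others was at 0 over the libraries. Summed hepatocyte markers were also read, at 1.46 to 528 CPM in TBT and 3.39 to 858 CPM in vehicle. TBT 2 and TBT 8 stood apart. Their normalization factors were 0.404 and 0.528, while the other TBT libraries had 1.08 to 1.58 and the vehicle libraries 0.736 to 1.37. Their summed platelet markers reached 13862 and 13884 CPM, with 2307 to 4140 CPM in the other 6 TBT libraries and 2493 to 6772 CPM in vehicle. As CPM of all counts, these sums were 5587 in TBT 2 and 7310 in TBT 8, against 3389 to 6697 in vehicle. A single small RNA, Gm23935, made up 14% of vehicle 6, and at most 0.443% of any other library. Unless stated otherwise, levels below are CPM (counts scaled to a common library size) on TMM-scaled libraries, where TMM (trimmed mean of M values) sets the libraries to a common typical gene. In bulk blood, fewer cells of a type and less RNA per cell cannot be told apart.

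Nras encodes a RAS protein prominent in blood cells. Its level had a low of 55.3, a median of 56.6 and a high of 142 CPM in TBT, against 50.4, 66.2 and 80.7 CPM in vehicle. The high TBT values were those of TBT 2 (142 CPM) and TBT 8 (136 CPM), and the other 6 TBT animals lay within 55.3 to 62.8 CPM, inside the vehicle range. The log2 fold change was 0.24 (SE 0.231), with a 95% interval of -0.243 to 0.732 and an adjusted p of 0.95 in edgeR. Without TBT 2 and TBT 8, it was -0.20, so those 2 animals set its direction. As CPM of all counts, Nras in TBT 2 (57.2) and TBT 8 (71.5) lay near the other 6 TBT animals (59.4 to 88.3) and the vehicle animals (53.7 to 72): their high values appear relative to a typical gene. Hras, the other RAS gene among the members, was the lowest of the 7 genes, with 12 to 58 counts per library. It stood at 2.60, 3.70 and 5.40 CPM (low, median and high) in TBT, against 2.45, 2.90 and 5.08 CPM in vehicle, and the groups overlapped, with 7 of 8 TBT animals above the vehicle median. Counting error alone gave a coefficient of variation (CV, the SD over the mean) of 17.7% in TBT and 18.7% in vehicle, near the observed 22.9% and 28.6%. Its log2 fold change was 0.17 (SE 0.195, edgeR adjusted p of 0.964), and it was 0.08 without TBT 8 and 0.29 without vehicle 7.

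**Figure D1:**
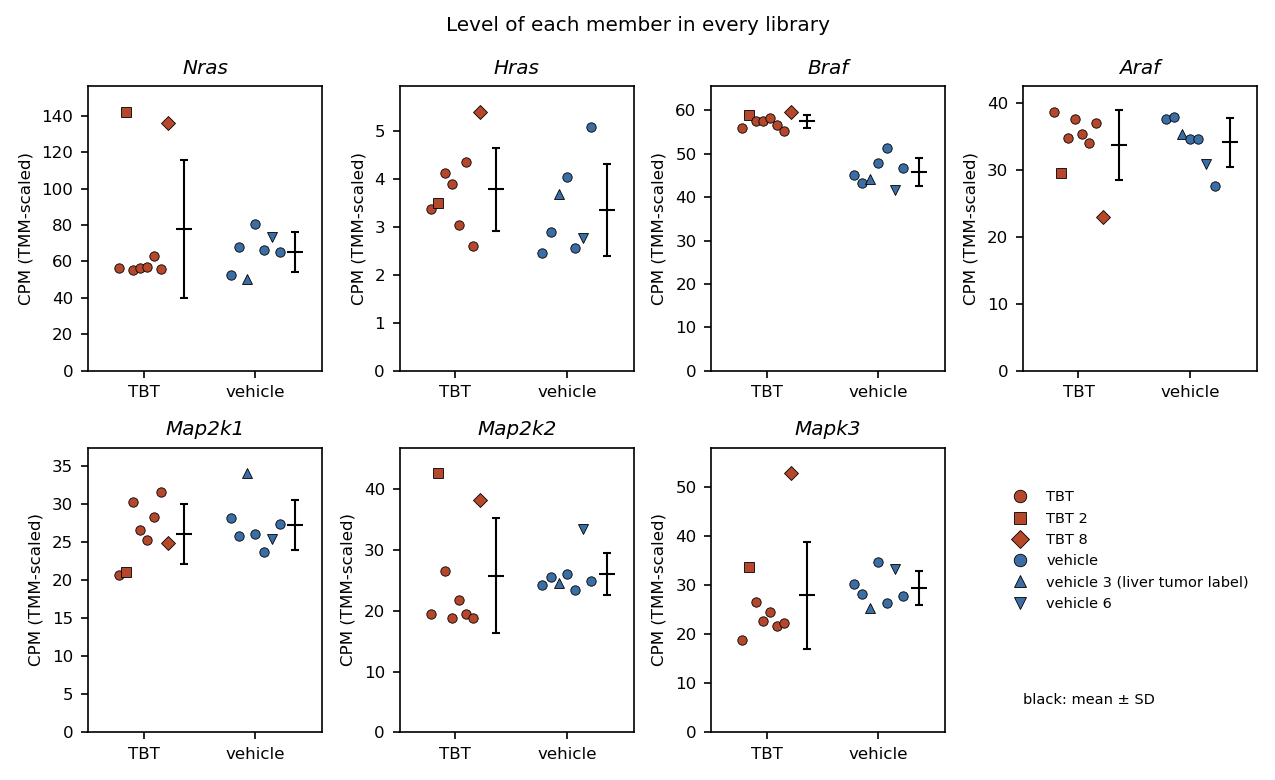
TMM-scaled CPM (vertical axis, from 0) of each member in 8 TBT and 7 vehicle libraries, 1 point per animal, with the mean and SD of each group in black. Braf lies between 55.2 and 59.6 CPM in TBT and between 41.7 and 51.3 CPM in vehicle. Among the TBT libraries, Nras, Map2k2 and Mapk3 are highest in TBT 2 and TBT 8. Mapk3 in TBT 2 lies inside the vehicle range.

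Braf encodes the RAF kinase with the highest basal activity and is known for activating mutations in human tumors. Its level was 55.2, 57.5 and 59.6 CPM (low, median and high) in TBT, against 41.7, 45.0 and 51.3 CPM in vehicle. The lowest TBT animal was above the highest vehicle animal. The means were 57.4 ± 1.49 CPM in TBT and 45.7 ± 3.2 CPM in vehicle (SD; n = 8 TBT and 7 vehicle animals), and the log2 fold change was 0.33 (SE 0.072). Of all tested genes, 0.0973% (13) lay higher, and 0.015% (2) lower, in every TBT than in every vehicle library; these shares are given as background because this contrast chose the family. Under 27 other settings the log2 fold change of Braf ran from 0.29 to 0.44.

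The position of Braf depended on how the libraries were scaled. With RLE size factors, a second scaling by a typical gene, the TBT range of 54.6 to 61.8 CPM was again above the vehicle range of 42.0 to 51.3 CPM. As CPM of all counts, Braf ran from 23.8 to 87.0 CPM in TBT and from 30.6 to 60.1 CPM in vehicle, and the groups overlapped. TBT 2 (23.8 CPM) and TBT 8 (31.4 CPM) were then low, and the other 6 TBT animals, at 61.9 to 87.0 CPM, were above all vehicle animals. As CPM of counts other than haemoglobin, those 6 animals lay at 98.4 to 122 CPM, TBT 2 at 48.3 CPM and TBT 8 at 56.5 CPM, against 46.9 to 88.4 CPM in vehicle. On all 4 scales these 6 TBT animals exceeded every vehicle animal, while TBT 2 and TBT 8 did so only on the scales set by a typical gene. These 6 animals were set apart after values were seen, and how many other genes split likewise was not counted. A library-wide measure split the same way. Gene models of the TEC and sense intronic biotypes took 0.583% to 0.743% of counts other than haemoglobin in these 6. Their share was 0.241% in TBT 2, 0.256% in TBT 8 and 0.283% to 0.529% in vehicle.

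**Figure D2:**
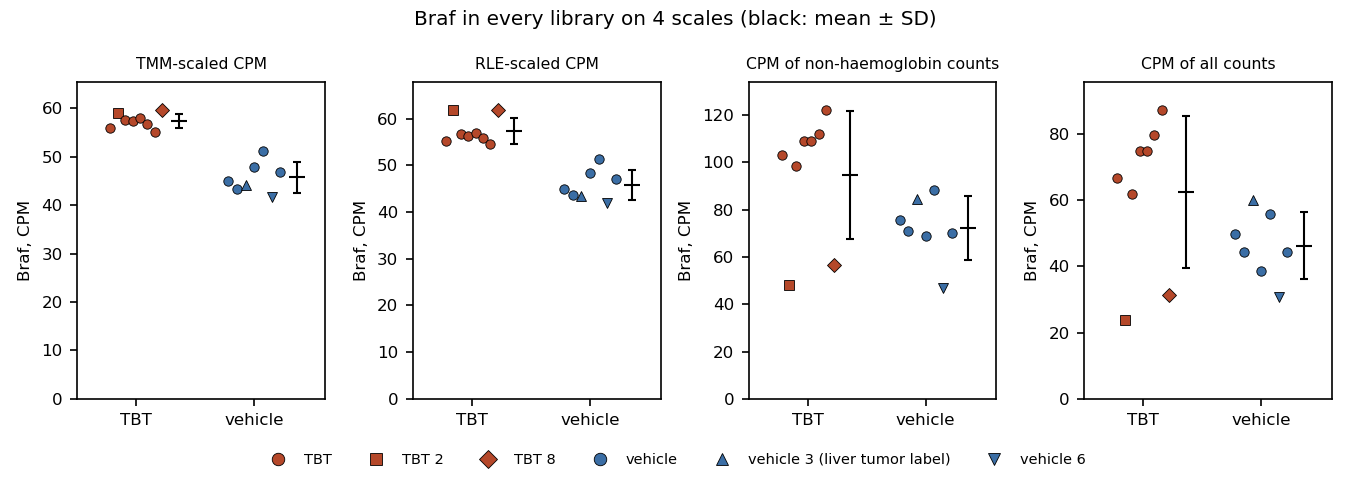
Braf in every library on 4 scales (CPM, vertical axes from 0), 1 point per animal, mean and SD in black. TBT 2 and TBT 8 join the other TBT animals, at 59 and 59.6 CPM, after TMM scaling and fall to 23.8 and 31.4 as CPM of all counts.

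The scatter of Braf among TBT animals was small. Its CV was 2.60% in TBT and 6.99% in vehicle, where counting error alone gives 4.5% and 5.01%, so the TBT spread was below the counting error. With RLE size factors the TBT value was 4.86%. Its biological CV in the fit was 13%, lower than all but 1.09% of 1469 genes of like level, whose median was 18.5%. The same fit gave Araf 16.2%, Map2k1 16.2%, Hras 21.1%, Map2k2 24.5%, Mapk3 25% and Nras 31.9%. A low scatter also helps a gene to a small p, so this value is not independent of the choice of Braf.

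Araf encodes a RAF kinase with weaker activity on MEK. Its level was 23.0, 35.1 and 38.7 CPM (low, median and high) in TBT, against 27.7, 34.7 and 38 CPM in vehicle. TBT 8 was lowest, and TBT 2 (29.5 CPM) was also below the rest of the TBT animals (34.0 to 38.7 CPM). Apart from TBT 8, the TBT animals lay within or just above the vehicle range. The log2 fold change was -0.01 (SE 0.108), with a 95% interval of -0.24 to 0.215 and an edgeR adjusted p of 0.997. The log2 ratio of Braf to Araf within a library needs no scaling factor. It was 0.53, 0.72 and 1.38 (low, median and high) in TBT, against 0.19, 0.43 and 0.76 in vehicle, so the groups overlapped and only TBT 2 (1.00) and TBT 8 (1.38) exceeded every vehicle animal. Set against Map2k1, Braf had log2 ratios of 0.81, 1.16 and 1.49 (low, median and high) in TBT and 0.38, 0.75 and 1.11 in vehicle, again with overlap.

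Map2k1 and Map2k2 encode the dual-specificity kinases that phosphorylate ERK. Map2k1 stood at 20.7, 25.9 and 31.5 CPM (low, median and high) in TBT, against 23.7, 26.1 and 34.0 CPM in vehicle, a log2 fold change of -0.06 (SE 0.107, edgeR adjusted p of 0.979). The 95% interval, -0.284 to 0.167, is narrow beside the median distance of 0.41 from estimate to interval bound over all tested genes. Map2k2 stood at 18.9, 20.7 and 42.6 CPM in TBT, against 23.4, 24.9 and 33.5 CPM in vehicle. TBT 2 (42.6 CPM) and TBT 8 (38.2 CPM) were above every vehicle animal, and 5 of the other 6 TBT animals were below every vehicle animal. These opposite deviations left a log2 fold change of -0.04 (SE 0.177, edgeR adjusted p of 0.994), and -0.33 without TBT 2 and TBT 8 (edgeR adjusted p of 0.0857). The log2 ratio of Map2k1 to Map2k2 was -1.02 in TBT 2 and -0.62 in TBT 8, and it ran from -0.40 to 0.73 in the other 13 libraries. As CPM of all counts, Map2k2 in TBT 2 (17.2) and TBT 8 (20.1) was below every vehicle animal (20.9 to 33.3).

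The MEK paralogues are similar enough to ask whether reads could be misassigned. The longest coding run that they share is shown for that reason. It joins exons 3 and 4 in both genes, chr9:64205181-64212631 (minus strand) for Map2k1 and chr10:81115125-81118159 (plus strand) for Map2k2, on GRCm38.
Map2k1 and Map2k2, shared by both: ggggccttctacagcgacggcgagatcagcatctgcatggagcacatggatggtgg
It is 56 bases long. Only 0.21% of the distinct 50-base words of Map2k1 transcripts, and 0.12% of those of Map2k2, occurred in the other gene. For the other members the share of 50-base words found in any other gene was 0.69% for Braf, 1.13% for Araf, 0.73% for Nras, 0% for Hras and 0.04% for Mapk3. The Braf words were all shared with Ndufb2, which overlaps 146 of its exon bases on the opposite strand and had 712 counts over all libraries, against 8099 for Braf.

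Mapk3 encodes ERK1, a kinase at the end of the cascade. Its level was 18.8, 23.6 and 52.7 CPM (low, median and high) in TBT, against 25.3, 28.1 and 34.7 CPM in vehicle. TBT 8 was highest at 52.7 CPM and TBT 2 stood at 33.6 CPM, while the other 6 TBT animals lay low, at 18.8 to 26.6 CPM. As CPM of all counts, TBT 2 (13.5) was lowest and TBT 8 (27.7) lay inside the vehicle range of 24.4 to 34.4. The log2 fold change was -0.09 (SE 0.179, 95% interval -0.468 to 0.286, edgeR adjusted p of 0.979). Without TBT 2 and TBT 8, it was -0.38 with an edgeR adjusted p of 0.0462, in a fit that called 462 of 13645 genes (3.39%). Without vehicle 6 as well, the value was -0.34 and the adjusted p 0.106, in a fit that called 7 genes (0.0515%). Both of these fits leave out TBT animals that go the other way.

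**Figure D3:**
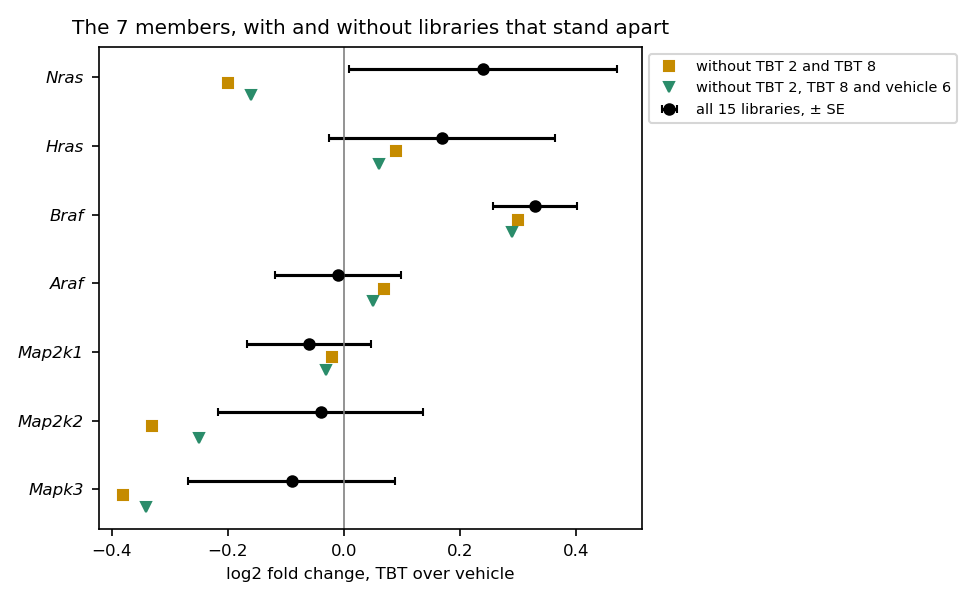
Log2 fold change of TBT over vehicle (horizontal axis) for the 7 members, with all 15 libraries (circle, bar: SE), without TBT 2 and TBT 8 (square) and without these and vehicle 6 (triangle). Braf stays between 0.29 and 0.33, whereas Nras moves from 0.24 to -0.20 without TBT 2 and TBT 8 and Mapk3 from -0.09 to -0.38.

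Levels were compared between genes per kilobase of merged exon. Averaged over the 15 libraries, Nras stood at 13.5 ± 5.33 CPM per kb (SD, n = 15) and Mapk3 at 12.7 ± 3.60, and their order held in only 8 of 15 libraries. Map2k1 followed at 7.84 ± 1.06 and Araf at 5.19 ± 0.673 CPM per kb, each below its predecessor in all 15 libraries. Map2k2 at 4.57 ± 1.25 and Braf at 3.75 ± 0.468 CPM per kb came next, with Araf above Map2k2 in 11 and Map2k2 above Braf in 10 libraries, so these neighbours overlapped. Hras was last in every library, at 0.96 ± 0.242 CPM per kb. Braf thus had the second largest CPM sum but the second lowest level per length, since its merged exons cover 13.862 kb and those of Mapk3 only 2.257 kb. In the GENCODE M21 annotation on GRCm38, Braf lies at chr6:39603237-39725463 on the minus strand and Mapk3 at chr7:126759601-126765819 on the plus strand.

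The members that varied most, Nras, Map2k2 and Mapk3, had their highest TBT levels in TBT 2 and TBT 8. After TMM scaling, these 2 libraries had the highest summed platelet and red cell markers. As CPM of all counts, the platelet sum of TBT 2 (5587) lay inside the vehicle range of 3389 to 6697. Ratios within a library need no scaling factor. The log2 ratio of summed platelet markers to summed B and T cell markers was 4.56 in TBT 2 and 4.46 in TBT 8, and 1.01 to 1.87 in the other 6 TBT libraries, against 1.28 to 2.88 in vehicle. Map2k1, the member with the MEK1 product, served as the denominator for the others. It had 72 counts (21.0 CPM, below every vehicle animal) in TBT 2 and 129 counts (24.9 CPM) in TBT 8, so a low Map2k1 adds to the ratios of TBT 2. The log2 ratio of Nras to Map2k1 was 2.75 in TBT 2, 2.45 in TBT 8 and 0.83 to 1.45 in the other 6 TBT libraries, against 0.57 to 1.63 in vehicle. TBT 2 and TBT 8 were above every vehicle library in both ratios, and the other 6 TBT libraries overlapped the vehicle libraries.

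Map2k2 and Mapk3 were likewise highest relative to Map2k1 in TBT 2 and TBT 8. The log2 ratio of Map2k2 to Map2k1 was 1.02 in TBT 2, 0.62 in TBT 8 and -0.73 to -0.08 in the other TBT libraries, against -0.47 to 0.40 in vehicle. That of Mapk3 to Map2k1 was 0.68 in TBT 2, 1.08 in TBT 8 and -0.49 to -0.04 in the other TBT libraries, against -0.42 to 0.41 in vehicle. In these ratios TBT 2 and TBT 8 were above every vehicle animal for both genes. The Mapk3 level itself in TBT 2, 33.6 CPM, lay inside the vehicle range of 25.3 to 34.7 CPM. Araf showed no such split: its log2 ratio to Map2k1 was 0.49 in TBT 2 and -0.12 in TBT 8, within or just below the 0.02 to 0.91 of the other 13 libraries.

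**Figure D4:**
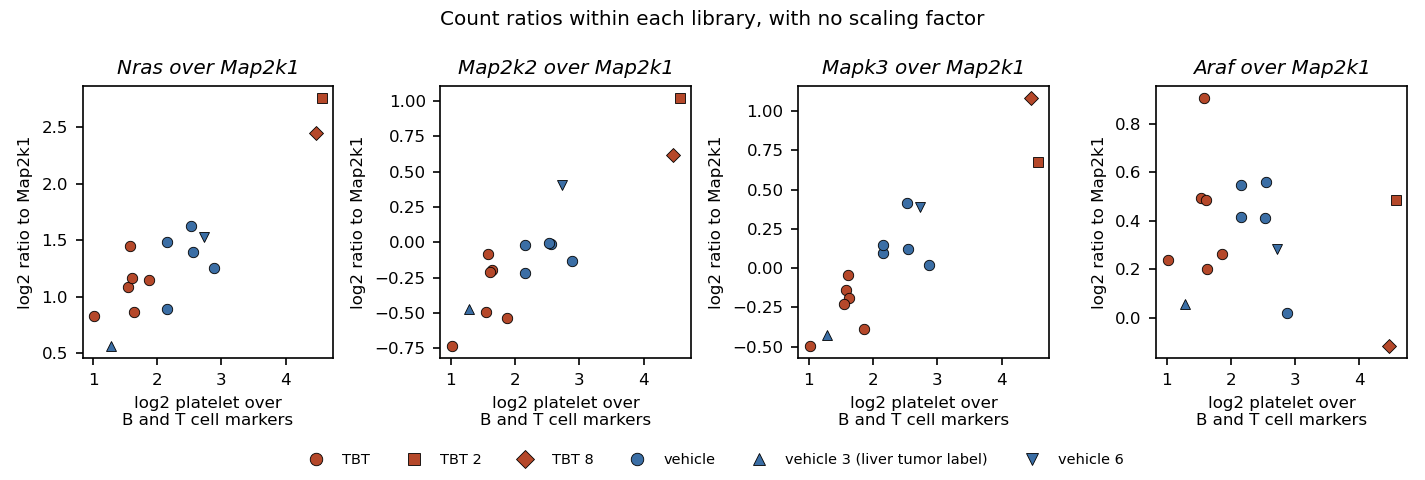
Log2 ratio of Nras, Map2k2, Mapk3 and Araf to Map2k1 (vertical axes) against the log2 ratio of summed platelet to summed B and T cell markers (horizontal axes) in each library. TBT 2 and TBT 8 lie at 4.56 and 4.46 on the horizontal axis, and the other 13 libraries at 1.01 to 2.88.

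Because TBT 2 and TBT 8 form a cluster of their own, the correlations with markers are those of the 12 libraries left without them and vehicle 6, after each group's mean was taken out. They are descriptions: the points share their library and its scaling. Of the 7 blood cell marker lists, the one with the largest Pearson r of either sign on log2 CPM is named for each member. It was the platelet list for Nras (r 0.80, Spearman rho 0.92) and, with the opposite sign, for Map2k1 (r -0.59, rho -0.52). It was the B cell list for Map2k2 (r -0.70, rho -0.52), the erythroid list for Mapk3 (r 0.59, rho 0.42) and the monocyte list for Araf (r -0.59, rho -0.37) and Hras (r 0.59, rho 0.44). Close behind stood T cell markers for Araf (r 0.57, rho 0.64). For Map2k2 these were monocyte (r 0.61, rho 0.40) and erythroid markers (r 0.58, rho 0.52). The hepatocyte list, left out here as not of blood cells, had a stronger negative r with Map2k1 (-0.64, rho -0.57) than the platelet list. With platelet markers, Map2k2 had an r of -0.18 (rho 0.00) and Mapk3 of 0.14 (rho -0.08), so on this scale the high values of these genes beside high platelet markers in TBT 2 and TBT 8 had no counterpart in these 12 libraries. Map2k2 and Mapk3 had an r of 0.64 (rho 0.49) with each other. Several of these values leaned on single libraries. Without TBT 3 as well, Map2k2 had an r of -0.31 with B cell and 0.18 with monocyte markers. Without vehicle 3 as well, the r with platelet markers was -0.29 for Map2k1 and 0.68 for Nras. Without vehicle 4 as well, Mapk3 had an r of 0.39 with erythroid markers. In the scale-free ratios to Map2k1, the r with the platelet to lymphocyte ratio over these 12 libraries was 0.69 (rho 0.50) for Nras, 0.67 (rho 0.77) for Hras, 0.66 (rho 0.27) for Mapk3, 0.60 (rho 0.39) for Map2k2, 0.50 (rho 0.27) for Braf and 0.16 (rho -0.06) for Araf. The negative r of the denominator with platelet markers enters all 6 of these values.

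For Braf the list with the largest r was that of neutrophils, at 0.84 (rho 0.69) on log2 CPM in the 12 libraries, 0.60 (rho 0.65) without vehicle 5 as well, and 0.41 (rho 0.27) in all 15. With the other blood cell lists its r in the 12 libraries was 0.44 for NK cells, 0.40 for erythroid cells, 0.21 for platelets, 0.11 for T cells, -0.03 for monocytes and -0.10 for B cells. The summed neutrophil markers ran from 349 to 758 CPM in TBT, against 408 to 1035 CPM in vehicle. The groups overlapped, 4 of the 6 markers had a higher mean in TBT, and none was at 0. Vehicle 5 had the highest value of the vehicle animals both in Braf (51.3 CPM) and in these markers. TBT 8 had the lowest neutrophil sum of all libraries and the highest Braf level. The part of blood cell makeup in the members' values was not tested.

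Genes whose level followed Braf most closely were sought among 11016 named genes with a mean of at least 1 CPM, over all 15 libraries and with group means taken out. The highest Pearson r were those of Rlf (0.80), Tmx3 (0.78), Ggt5 (0.76), Stag1 (0.75) and Inpp5b (0.75). This ranking includes TBT 2 and TBT 8 and was made after TMM scaling. The top of 11016 values over 15 libraries can be high by selection alone, and this was not tested. In the 12 libraries, which are part of the same 15, the values were 0.93, 0.63, 0.76, 0.82 and 0.71 in the same order. Rlf encodes a zinc finger protein and Stag1 a cohesin subunit. The members' own r with Braf depended on the scale and on the libraries used. After TMM scaling over all 15 libraries it was 0.31 for Nras, 0.25 for Hras and 0.23 for Mapk3. For Map2k2 it was 0.1, for Araf -0.27 and for Map2k1 -0.29. In the 12 libraries after TMM scaling it was 0.41 for Nras, 0.20 for Mapk3, 0.06 for Hras, 0.05 for Map2k2, -0.35 for Araf and -0.37 for Map2k1. With RLE size factors over all 15 libraries, Nras had 0.60 and Araf -0.44. As CPM of all counts over the 15 libraries, all 6 were high, from 0.65 for Nras to 0.96 for Map2k1 and 0.97 for Araf, on a scale where every gene of a library shares its total.

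Around the members, the wider pathway showed no called difference. Of 87 listed genes 76 were tested, and edgeR called 0 of them, as it called 0% of all 13364 tested genes. At an unadjusted p under 0.05 stood 4 of the 76 and 846 of all tested genes. DESeq2, and limma-voom with sample quality weights, called 0 pathway genes and 0 of the 6 members other than Braf. Of all genes they tested, they called 13 (0.0644%) and 19 (0.142%). Without TBT 2 and TBT 8, edgeR called 4 of 79 pathway genes, namely Gab1, Pea15a, Ptpn11 and Rasgrp2, all lower in TBT, beside 3.39% of all genes in that fit. Without vehicle 6 as well, it called 0 of 79. The 76 genes had a median log2 fold change of 0.01, with 39 higher and 37 lower in TBT, and all tested genes had a median of 0.05 with 59.4% higher. The 7 members split into 3 higher and 4 lower, with a median of -0.01.

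Upstream of RAS, 7 adaptor and exchange factor genes were higher and 5 lower in TBT, with a median of 0.03. Ptpn11, which encodes the phosphatase SHP2, averaged 199 ± 142 CPM in TBT and 195 ± 53.7 CPM in vehicle (SD over 8 TBT and 7 vehicle animals). Its values in TBT 2 and TBT 8 were 447 and 407 CPM, and at most 274 CPM in the other libraries. Rasgrp2, the gene of an exchange factor known from platelets, showed 314 and 279 CPM in these libraries and 130 to 247 CPM in the other 13, while Rasgrp1, its T cell counterpart, was low there, at 54.0 and 58.6 CPM against 67.8 to 92.0 CPM elsewhere. Among the GTPase-activating proteins that switch RAS off, 5 were higher and 5 lower (median 0.01). Rasa3 averaged 277 ± 80.6 CPM in TBT and 271 ± 25.6 CPM in vehicle, and Nf1, the neurofibromin gene, averaged 47.2 ± 9.11 CPM in TBT and 41.8 ± 4.97 CPM in vehicle, a log2 fold change of 0.17 (SE 0.115, edgeR adjusted p of 0.872) that was 0.07 without TBT 8.

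The scaffolds and RAF regulators had 7 higher and 4 lower genes (median 0.06). Ywhaz, a 14-3-3 gene whose protein binds RAF, reached 1119 CPM in TBT 2 and 1096 CPM in TBT 8, with 386 to 684 CPM elsewhere. Among ERK phosphatases and Sprouty and Spred inhibitors, 3 were higher and 4 lower (median -0.02). Dusp6, the ERK phosphatase gene, had a log2 fold change of -0.02 (SE 0.152), and Spred1, a RAS inhibitor gene, 0.40 (SE 0.243, edgeR adjusted p of 0.868). The Spred1 value was 0.22 without TBT 3 and 0.60 without vehicle 3. Kinases and transcription factors downstream of ERK had 8 higher and 4 lower genes (median 0.04). Cic, a repressor that ERK inactivates, averaged 83.2 ± 10.7 CPM in TBT and 95.7 ± 7.03 CPM in vehicle, a log2 fold change of -0.20 (SE 0.101, edgeR adjusted p of 0.81).

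Genes that ERK signalling induces had 2 higher and 8 lower of 10 tested (median -0.06), and none was called. Ier2 had a log2 fold change of -0.19 (SE 0.139), Myc of -0.06 (SE 0.154) and Fos of -0.06 (SE 0.33). In the neighbouring p38, JNK and ERK5 modules, 7 were higher and 7 lower (median -0.02). Mapk14, the p38 alpha gene, reached 133 CPM in TBT 2 and 127 CPM in TBT 8, with 68.6 to 92.1 CPM elsewhere, and Map2k3, a kinase upstream of p38, at 311 and 232 CPM against 52.9 to 158 CPM elsewhere. Map3k1 went the other way in these libraries, with 114 and 139 CPM against 162 to 220 CPM.

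**Figure D5:**
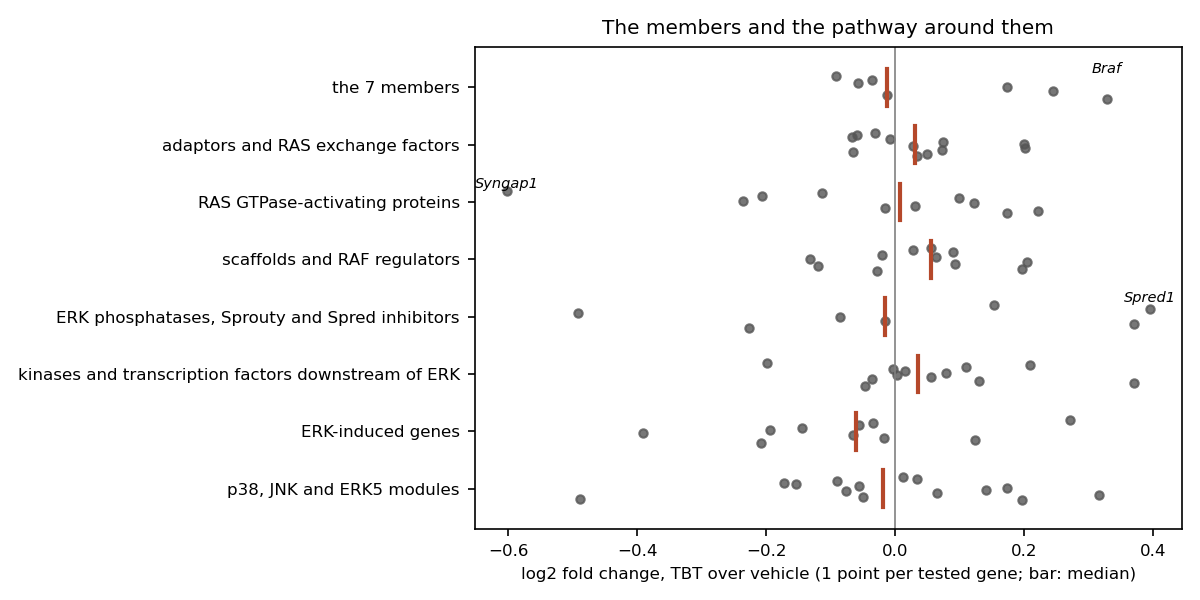
Log2 fold change of TBT over vehicle (horizontal axis) of the 7 members and of the 76 tested pathway genes by list, 1 point per gene, with the median of each list as a bar. List medians lie between -0.06 and 0.06, and Braf is at 0.33.

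Vehicle 3, which carries the liver tumor label, was compared with the remaining 6 vehicle animals by rank only. It had the highest Map2k1 (34.0 CPM, with 23.7 to 28.2 CPM in the others). It had the lowest Nras (50.4 CPM, with 52.5 to 80.7 CPM) and Mapk3 (25.3 CPM, with 26.3 to 34.7 CPM). Its Braf level of 44.2 CPM, and its Araf, Hras and Map2k2 levels, lay inside the range of the others. Its log2 ratio of platelet to B and T cell markers was also the lowest among vehicle animals, at 1.28.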

How the data were processed

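Per the labels' protocols, stranded total RNA libraries (TruSeq) were made from DNase-treated RNeasy extracts of blood. Per the submitters' processing notes, Trim Galore, HISAT2 and featureCounts were used with build mm10; no source used here gives tool versions, annotation release or strand setting. The table the authors deposited holds raw gene counts as whole numbers, 1 column per animal.

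All counts were used as deposited. Genes were kept by filterByExpr and fitted with edgeR 4.0.16 in R 4.3.3 (TMM, robust glmQLFit and glmQLFTest, no covariate), with Benjamini-Hochberg adjustment over 13364 genes at 0.05. Standard errors come from the quasi-likelihood F statistic. DESeq2 1.42.0, limma 3.58.1 (voom with a quality weight for each library) and other scalings, filters and left-out libraries were alternatives. The code was tested on simulated data. Libraries of a group differed beyond sampling noise (chi-square per gene of at least 11.3), and each counted as 1 animal. Of the gene identifiers, 55450 were found in GENCODE M21 on GRCm38, used for coordinates, exon lengths and 50-base words; RefSeq gave the promoters.

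The members and lists were chosen with earlier results of these data known. Named genes were the 7 members and the 3 tested genes of highest mean CPM in each pathway list; some genes of the rule, with 1 list, are not reported here. The promoter motifs, the ratios to Map2k1, the relations without 1 more library, the fits without TBT 2 and TBT 8, with library totals and with a platelet covariate, and Gm23935 were chosen after values were seen.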

Additional observations from a re-analysis of the deposited data

Results flagged for a closer look

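In the 82 groups of values examined (28 named genes, marker sums, ratios and a library share, in TBT and in vehicle), 8 held 1 animal far from the others of its group by Dixon's test, or 9.76%, where chance gives about 1 in 20. Mapk3 in TBT 8 was 52.7 CPM, with 18.8 to 33.6 CPM in the other 7 TBT animals. Map2k2 in vehicle 6 was 33.5 CPM, with 23.4 to 26 CPM in the other 6 vehicle animals. Nf1 in TBT 8 was 68.3 CPM, with 40.9 to 51.7 CPM in the other TBT animals. Mknk2, an ERK-activated kinase gene, was 189 CPM in TBT 2, with 89.1 to 112 CPM in the other TBT animals. Rasa3 in vehicle 6 was 322 CPM, with 244 to 277 CPM in the other vehicle animals. Spred1 was 23.4 CPM in vehicle 3 (liver tumor label), with 7.85 to 14.4 CPM in the others. Summed neutrophil markers were 1035 CPM in vehicle 5, with 408 to 609 CPM in the others. Summed hepatocyte markers were 858 CPM in vehicle 4, with 3.39 to 360 CPM in the others.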

How the results depend on the processing

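The count of genes called over the whole table, 0 in edgeR, stayed 0 with RLE or upper-quartile scaling, with library totals, without haemoglobin genes and without each animal in turn (0 to 0). It was 2 (1 higher, 1 lower) with no filter, 13 (11 higher, 2 lower) with DESeq2, 19 (16 higher, 3 lower) with limma-voom, 3 (3 higher) with a platelet covariate, 7 (3 higher, 4 lower) without TBT 2, TBT 8 and vehicle 6, and 462 (116 higher, 346 lower) without TBT 2 and TBT 8. In this last fit Mapk3 (-0.38), Ptpn11 (-0.68, adjusted p of 0.0425) and Rasgrp2 (-0.43, adjusted p of 0.0425) were called lower; the cause was not tested. The replicate number only names the animal: same-numbered animals correlated over 0.1 in 2 of 7 pairs (-0.23 to 0.51), and the replicate block called 0 genes. Leaving out 1 animal moved Braf within 0.30 to 0.35, Nras within 0.06 to 0.30, Mapk3 within -0.29 to -0.02, Map2k2 within -0.17 to 0.03, Araf within -0.06 to 0.04, Hras within 0.08 to 0.29 and Map2k1 within -0.12 to -0.01. Among the other genes given with a fold change, it moved Spred1 within 0.22 to 0.60, Nf1 within 0.07 to 0.22, Fos within -0.27 to 0.18, Dusp6 within -0.09 to 0.05, Cic within -0.27 to -0.18, Ier2 within -0.26 to -0.14 and Myc within -0.14 to 0.00. With library totals, the median over all genes was 0.14, Braf was 0.44, Araf 0.15 and Map2k1 0.08. With limma-voom and its library weights, Nras was -0.11, Map2k2 -0.30 and Mapk3 -0.35. Araf was 0.04, Hras 0.22 and Map2k1 -0.03 in that fit. Depth limits Hras most, at 12 to 58 counts per library.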
